A study of Homo sapiens with 12 samples.

Results

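The RUNX transcription factors and their closest cofactors comprised 7 genes of the 60671 in the count table: RUNX1, RUNX2, RUNX3, their partner CBFB, and the corepressors CBFA2T2, CBFA2T3 and RUNX1T1. All 7 symbols matched 1 Ensembl gene each. The family was chosen by its CPM (counts scaled by library size) in all 6 groups, which had been seen, so the members' levels and responses below are descriptions. No p-values are given for them, and where edgeR's calls on them are counted beside the share over all genes, nothing rests on those calls. The members' 95% confidence intervals come from the same values and are descriptions too. Of the 7, 5 passed the filter on low counts that left 18219 genes to test, and RUNX3 and RUNX1T1 did not. In brief, RUNX1 was 2.22-fold higher after SOX9 induction, CBFA2T3 had a log2 fold change of -1.08 with widely spread libraries, and the 95% confidence intervals of RUNX2, CBFB and CBFA2T2 included 0.

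RNA was sequenced from derivatives of LS180, a human cell line from a colorectal cancer, that each carried 1 doxycycline-inducible construct. The constructs encoded GFP as the control, SOX9, an intestinal stem cell and progenitor transcription factor, or M303, a truncated SOX9. Each derivative was measured without doxycycline and after 24 h with 0.5 µg/ml doxycycline, giving 6 groups of 2 libraries (12 in all) and the question of what SOX9 does to expression that M303 and GFP do not. Totals ranged from 31012775 to 48529770 counts per library. Each construct sat in its own line, so construct and line cannot be told apart in comparisons between lines, and the labels do not say whether a line is 1 clone. Nothing states that duplicates were separate cultures, so the p-values reflect the spread of these libraries alone, and that spread may be technical. The SOX9 count, which pools endogenous and construct transcripts, went from 369 ± 16.8 to 736 ± 34.7 CPM (SD, n = 2) with doxycycline in the SOX9 line and from 383 ± 22.7 to 842 ± 34.4 in the M303 line. It was 396 ± 4.62 and 388 ± 24.0 CPM in the GFP line, where GFP itself was not counted. All 12 intestinal epithelial markers examined had a median of at least 1 CPM. In the induced SOX9 libraries their summed level was 10799 to 10830 CPM, against 11780 to 13334 in the 10 other libraries. All 10 lay above the induced SOX9 pair, and the part of this in the results below was not tested.

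RUNX proteins bind DNA through the Runt domain, and CBFB, which does not bind DNA itself, raises their affinity and protects them from degradation. Depending on the gene they recruit acetyltransferases or corepressors. RUNX1 is required to form blood stem cells, RUNX2 to form bone and RUNX3 for T cells and sensory neurons, and RUNX1 and RUNX3 are also made in epithelia. CBFA2T2, CBFA2T3 and RUNX1T1 are related scaffolds that link DNA-binding factors to NCOR and histone deacetylases, and RUNX1T1 is the gene fused to RUNX1 in a form of acute myeloid leukaemia.

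RUNX1 (ENSG00000159216, GRCh38 chr21:34787801-36004667, minus strand, 15574 merged exon bases) was the member with the largest fold change on SOX9 induction. It was at 46.0 and 45.2 CPM in the induced SOX9 libraries and at 21.3 and 19.8 CPM in the uninduced ones, from 1440 to 2270 and from 703 to 795 counts. The same gene was at 23.6 and 23.9 CPM in the uninduced M303 line and at 25.5 and 22.3 CPM after induction. In the GFP line it was at 27.2 and 29.1 CPM without and at 25.3 CPM in both libraries with doxycycline. The induced SOX9 pair stood above all 10 other libraries, which spanned 19.8 to 29.1 CPM. The uninduced SOX9 line had the lowest mean of the 6 groups and the induced SOX9 line the highest. In bulk RNA, more cells with a transcript and more RNA per cell cannot be told apart.

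**Figure D1:**
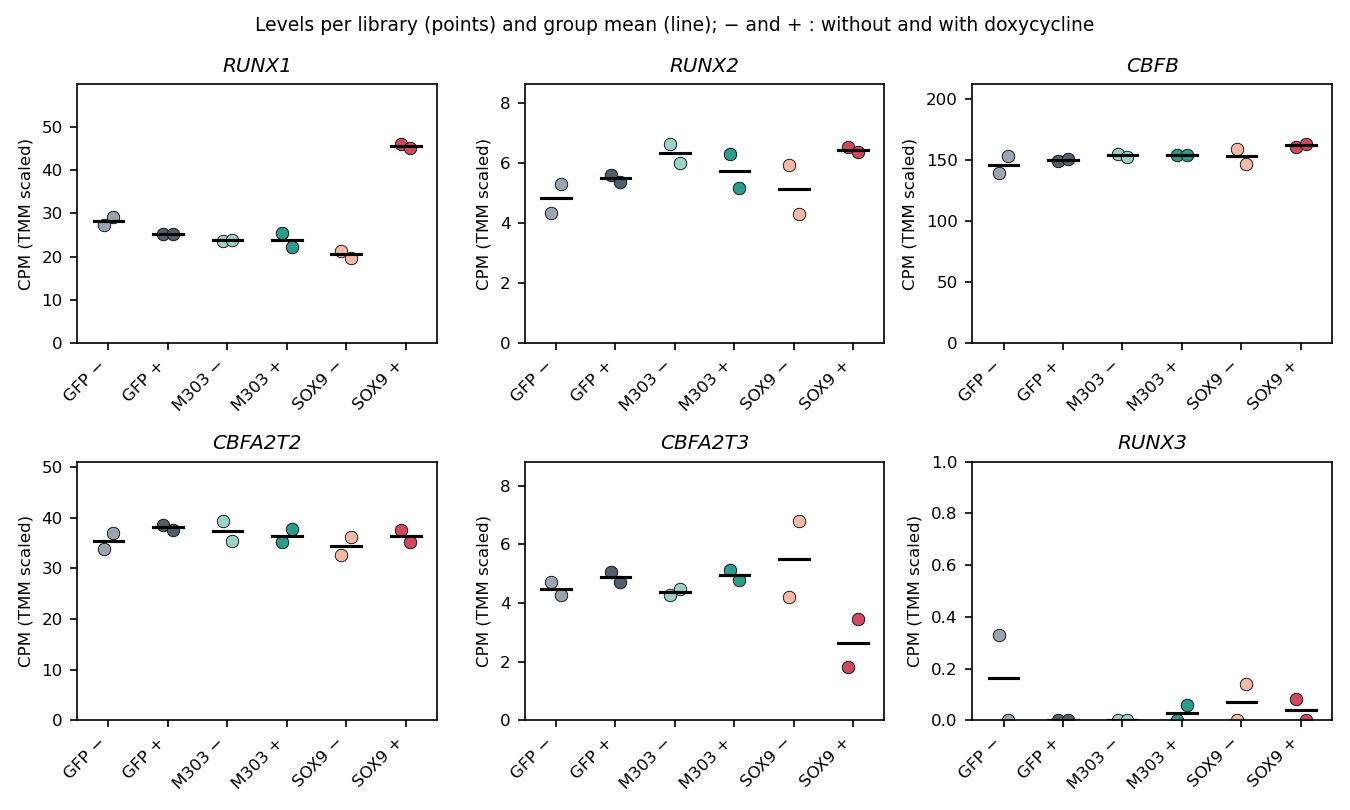
Levels in CPM (vertical axis, linear, TMM-scaled) of 6 of the 7 genes in each of the 12 libraries (points), by line and doxycycline (horizontal axis), with group means as lines. RUNX1 in the induced SOX9 libraries (45.2 and 46.0 CPM) lies above every other library, CBFA2T3 there (1.82 and 3.45 CPM) lies below every other library, and RUNX3 is at or close to 0 throughout.

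The log2 fold change of RUNX1 on SOX9 induction was 1.15 (SE 0.11, 95% confidence interval 0.93 to 1.37). On M303 induction the change was 0.01 (interval -0.21 to 0.23), and on GFP induction -0.16 (-0.38 to 0.06). The 2 GFP groups did not overlap, with the induced pair lower, whereas the M303 groups overlapped. The share of all genes without overlap was not counted for these groups, so nothing is read from this. The response to SOX9 exceeded that to M303 by 1.14 (0.83 to 1.45) and that to GFP by 1.31 (1.00 to 1.62), both on the log2 scale. These differences share the SOX9 libraries.

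By single-gene intervals, RUNX1 levels also differed between the uninduced lines, although edgeR called RUNX1 in neither comparison with the GFP line. The intervals are for single genes and are not adjusted for the number of genes tested. The uninduced SOX9 line differed from the uninduced GFP line by -0.46 on the log2 scale (interval -0.68 to -0.23), and the uninduced M303 line differed by -0.24 (-0.47 to -0.02). The libraries of each pair of lines did not overlap. On SOX9 induction 44.7% of all genes had 2 groups without overlap. The share for these lines was not counted, so nothing is read from the separation. Against the uninduced GFP line at 28.2 CPM rather than its own line at 20.5 CPM, the induced SOX9 level of 45.6 CPM was therefore a smaller step. In order of group mean RUNX1 ran from induced SOX9 through uninduced GFP, induced GFP, induced M303 and uninduced M303 to uninduced SOX9. Only the middle neighbours, induced GFP with induced M303 and induced M303 with uninduced M303, overlapped.

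Calls were made with edgeR's quasi-likelihood test at a Benjamini-Hochberg adjusted p under 0.05 over all genes tested. On SOX9 induction 2 of the 5 tested members were called, RUNX1 higher and CBFA2T3 lower, against 541 genes or 2.97% of all tested (1.81% higher and 1.16% lower). In the difference between SOX9 and M303 inductions 1 of 5 was called, RUNX1, against 0.489% of all genes (0.357% higher, 0.132% lower). In that between SOX9 and GFP inductions RUNX1 was again the 1 member called, against 0.895% (0.631% higher, 0.263% lower). On M303 induction no member was called, against 0.00549% (1 gene, SOX9), and on GFP induction none, against 0%. For the latter, edgeR gave 580 genes at an unadjusted p under 0.05 and DESeq2 called 2. In the uninduced lines no member was called, against 0% for the SOX9 line (866 genes at an unadjusted p under 0.05, 2 called by DESeq2) and 0.00549% for the M303 line. Since the members were picked from these groups, their counts are a description and nothing is read from them. The CPM ranges of the 2 SOX9 groups did not overlap for 4 of the 5 tested members, against 44.7% of all genes. Both induced SOX9 libraries lay outside the range of the other 10 for 3 of them (RUNX1, CBFB and CBFA2T3), against 14.9% of all genes.

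RUNX2 (ENSG00000124813, chr6:45328157-45664349, plus strand, 8192 exon bases) was present at a lower level. It was at 6.53 and 6.34 CPM with SOX9 induced and at 5.94 and 4.28 CPM without. The M303 line had 6.62 and 5.99 CPM uninduced and 6.28 and 5.17 CPM induced, and the GFP line 4.34 and 5.30 CPM uninduced and 5.60 and 5.35 CPM induced. The SOX9 pair was above its own uninduced pair but inside the range of the other 10 libraries, which reached 6.62 CPM in an uninduced M303 library. The log2 fold change on SOX9 induction was 0.33 (-0.11 to 0.78), on M303 induction -0.14 (-0.58 to 0.31) and on GFP induction 0.18 (-0.27 to 0.63). All neighbours in the order of group means overlapped, and the interval on SOX9 induction allows both no change and a change of 0.78.

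RUNX3 (ENSG00000020633, chr1:24899511-24965121, minus strand, 4922 exon bases) was close to undetected. The 12 libraries held 21 of its counts, and 8 libraries held none. The others were an uninduced GFP library with 10 counts (0.329 CPM), an uninduced SOX9 library with 5, an induced SOX9 library with 4 and an induced M303 library with 2. In no group did both libraries have a count. A total of 0 counts in both libraries of a group, as in the induced GFP and uninduced M303 groups, allows up to 3 counts per group, which came to between 0.0370 and 0.0451 CPM over the groups. Such limits cover counting error only and take each count as independent. They are too low to the extent that both mates of a fragment were counted.

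Promoters of the members were read for the letters that RUNX proteins themselves bind and for a SOX motif. The windows are those of RefSeq (GRCh38.p14, 250 bases before to 50 after the annotated start); 5 members were searched on both strands for the RUNX motif TGTGGT or TGCGGT and the SOX motif AACAAT or AACAAAG. The 250 bases before the start are shown 5′ to 3′ on the gene's strand for the 3 RUNX genes and for CBFA2T3, the corepressor with the largest fold change, and capitals mark RUNX matches.
RUNX1 (chr21:34888700-34888949, minus strand): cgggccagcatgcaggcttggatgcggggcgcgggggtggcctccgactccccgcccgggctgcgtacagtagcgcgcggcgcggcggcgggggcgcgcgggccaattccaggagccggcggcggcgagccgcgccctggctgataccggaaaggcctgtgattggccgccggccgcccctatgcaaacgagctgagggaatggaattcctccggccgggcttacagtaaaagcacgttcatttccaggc
RUNX2 (chr6:45328080-45328329, plus strand): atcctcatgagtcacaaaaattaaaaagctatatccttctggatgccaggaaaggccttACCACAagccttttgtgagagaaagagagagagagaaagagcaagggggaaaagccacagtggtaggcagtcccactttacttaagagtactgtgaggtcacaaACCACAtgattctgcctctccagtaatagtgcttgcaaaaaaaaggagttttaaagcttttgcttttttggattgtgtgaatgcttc
RUNX3 (chr1:24965011-24965260, minus strand): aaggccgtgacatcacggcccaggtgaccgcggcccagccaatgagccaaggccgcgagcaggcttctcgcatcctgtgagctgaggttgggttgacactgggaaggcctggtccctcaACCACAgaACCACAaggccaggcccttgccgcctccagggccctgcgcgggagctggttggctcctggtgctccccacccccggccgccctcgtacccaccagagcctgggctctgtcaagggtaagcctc
CBFA2T3 (chr16:88941351-88941600, minus strand): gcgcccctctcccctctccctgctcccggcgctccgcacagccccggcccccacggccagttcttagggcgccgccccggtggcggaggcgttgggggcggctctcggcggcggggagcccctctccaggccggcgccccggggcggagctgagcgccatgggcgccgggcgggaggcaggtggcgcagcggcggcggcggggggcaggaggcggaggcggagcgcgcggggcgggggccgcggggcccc

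In the whole window RUNX2 held 5 RUNX matches, at positions -191, -87, 16, 24 and 32 from the start, the last 3 lying after it and outside the bases shown. RUNX3 held 2, at -131 and -123, both on the strand opposite to the gene and 8 bases apart. RUNX1, CBFA2T2 and CBFA2T3 held none, and none of the 5 members searched held a SOX match. CBFB and RUNX1T1 had no window and were not searched. Of 35116 RefSeq promoter windows, 19.6% hold the RUNX letters and 14.5% the SOX letters. With no SOX match, no match of one motif overlapped one of the other, and a match or its absence describes these letters in this window alone. The windows also differed in base composition, with 72% G and C for RUNX1, 66.3% for RUNX3 and 83% for CBFA2T3, against 42.7% for RUNX2, 44.3% for CBFA2T2 and a median of 58.7% over all windows. The windows of RUNX1, CBFA2T2 and CBFA2T3 lie wholly inside the spans of these genes in the count table. The gene-level count does not separate transcripts that begin at different promoters, so the start to which a gene's counts belong was not measured.

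CBFB (ENSG00000067955, chr16:67028984-67101058, plus strand, 4652 exon bases), the shared partner, was the most abundant member. It was at 161 and 163 CPM with SOX9 induced and at 160 and 147 CPM without. The M303 line gave 155 and 153 CPM uninduced and 155 and 154 CPM induced, and the GFP line 140 and 153 CPM uninduced and 150 and 151 CPM induced. The induced SOX9 pair was the highest of the 12 libraries, by a narrow margin over an uninduced SOX9 library at 160 CPM. Its log2 fold change was 0.08 (-0.07 to 0.24) on SOX9 induction, 0.00 (-0.15 to 0.16) on M303 induction and 0.04 (-0.12 to 0.19) on GFP induction. The intervals were the narrowest of the 5 tested members in all 3 inductions, and on SOX9 induction the interval reached up to 0.24.

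**Figure D2:**
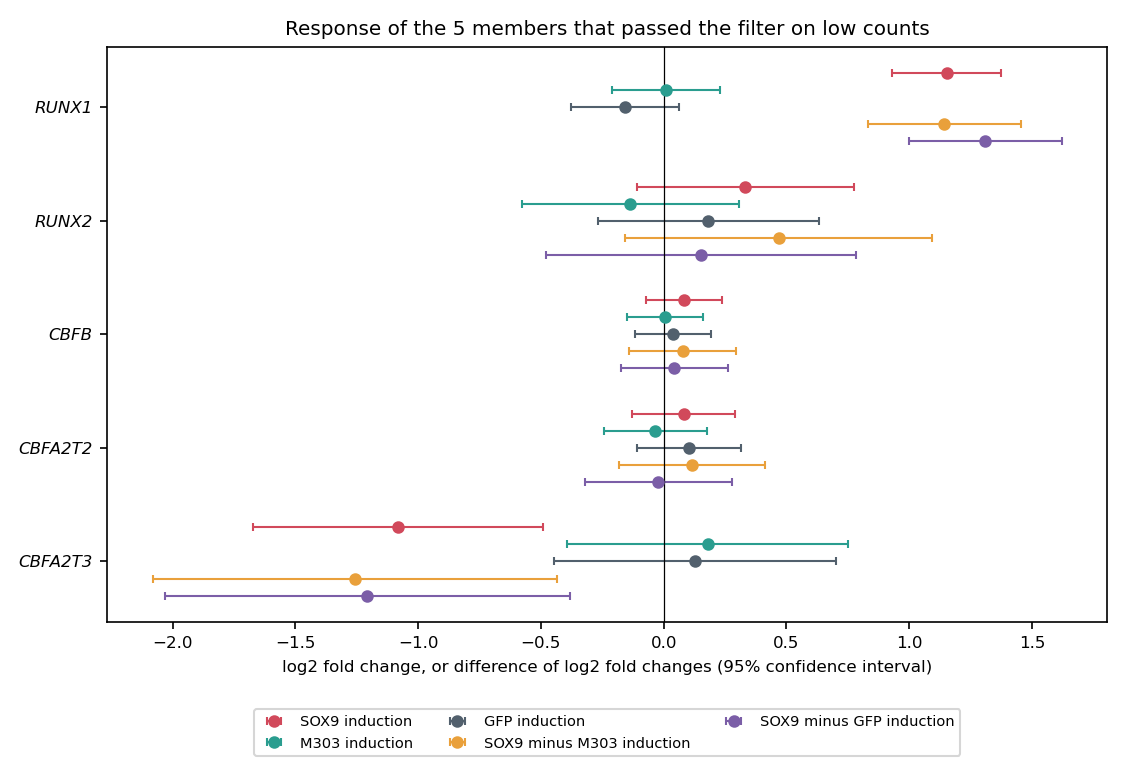
Log2 fold changes on induction, and differences between inductions (horizontal axis), of the 5 members that passed the filter, with 95% confidence intervals as bars. RUNX1 lies at 1.15 on SOX9 induction and near 0 on M303 and GFP induction, CBFA2T3 lies at -1.08 on SOX9 induction with wide intervals, and the intervals of RUNX2, CBFB and CBFA2T2 all include 0.

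CBFA2T2 (ENSG00000078699, chr20:33490075-33650036, plus strand, 9457 exon bases), also called MTGR1, is needed to keep secretory cells in the mouse small intestine. Over the 12 libraries it ranged from 32.7 CPM in an uninduced SOX9 library to 39.2 CPM in an uninduced M303 library. With SOX9 induced it was at 37.5 and 35.2 CPM, and without at 32.7 and 36.1 CPM. These groups overlapped, and all neighbours in the order of the 6 group means overlapped too. The log2 fold change was 0.08 (-0.13 to 0.29) on SOX9 induction, -0.03 (-0.24 to 0.18) on M303 induction and 0.10 (-0.11 to 0.31) on GFP induction.

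CBFA2T3 (ENSG00000129993, chr16:88874858-88977207, minus strand, 5975 exon bases), also called MTG16, was the member with lower values on SOX9 induction. It was at 1.82 and 3.45 CPM with SOX9 induced, from 90 and 110 counts, and at 4.20 and 6.78 CPM without, from 157 and 241 counts. The M303 line had 4.27 and 4.48 CPM uninduced and 5.13 and 4.77 CPM induced, and the GFP line 4.70 and 4.27 CPM uninduced and 5.07 and 4.71 CPM induced. The induced SOX9 pair lay below all 10 other libraries, and both SOX9 groups had a wider spread than the M303 and GFP groups, with SDs of 1.15 and 1.83 CPM against 0.146 to 0.303. The highest library of the 12 was uninduced SOX9 replicate 2, and the uninduced replicate 1 lay below the M303 and GFP libraries.

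The log2 fold change of CBFA2T3 on SOX9 induction was -1.08 (SE 0.28, interval -1.67 to -0.49). It was 0.18 (-0.39 to 0.75) on M303 induction and 0.13 (-0.45 to 0.70) on GFP induction. The SOX9 response differed by -1.26 (-2.08 to -0.44) from that to M303 and by -1.21 (-2.03 to -0.38) from that to GFP. edgeR called neither difference, only the change on SOX9 induction. The value rests on single libraries: it was -0.70 without uninduced SOX9 replicate 2 and -0.67 without induced SOX9 replicate 1, and in both cases edgeR no longer called it. Nor did edgeR call it, at -1.08, when the fit held only the 2 groups compared. An unnamed gene on the opposite strand, ENSG00000259881, covers 501 (8.38%) of the CBFA2T3 exon bases and itself had 42 counts over the 12 libraries. Reads in the shared bases were counted for neither gene, since the counting left out reads that overlap several genes and did not use strand.

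RUNX1T1 (ENSG00000079102, chr8:91954967-92103286, minus strand, 13535 exon bases) was not detected in 11 of the 12 libraries. The 12th, an uninduced M303 library, held 2 counts (0.0533 CPM). The limit from 0 counts in a group is the one given for RUNX3, 0.0370 to 0.0451 CPM. An unnamed gene on the opposite strand, ENSG00000253576, shares 66 of its exon bases (0.488%) and had 0 counts.

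Levels were compared between genes per kb of merged exons. CBFB averaged 33.0 CPM per kb over the 12 libraries, CBFA2T2 3.84, RUNX1 1.79, CBFA2T3 0.748, RUNX2 0.689, RUNX3 0.0103 and RUNX1T1 0.000328. On this scale 92.3% of the tested genes were below CBFB, 56.0% below CBFA2T2, 44.3% below RUNX1, 33.6% below CBFA2T3 and 32.6% below RUNX2. On this scale the partner was far more abundant than any gene that encodes a DNA-binding member, and those lay below the middle of the range. Merged exons can be longer than any single transcript, with 15574 bases for RUNX1 against 4652 for CBFB. The sizes of these gaps, and of the per-kb ratios below, therefore depend on the annotation.

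The summed level of the 3 RUNX genes was 3.68 and 3.77 CPM per kb in the induced SOX9 libraries and 1.82 to 2.51 in the other 10. RUNX1 made up 78.4% and 78.9% of that sum with SOX9 induced, against 65.2% to 74.6% elsewhere, and the ratio of RUNX1 to RUNX2 was 3.71 and 3.75 against 1.88 to 3.30. The ratio of CBFB to the RUNX sum was 9.19 and 9.54, against 12.8 to 17.3. Transcripts of the partner thus exceeded those of the RUNX genes in every library, by the smallest factor where SOX9 was induced. These are ratios of transcripts, not of protein.

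Among the corepressors the sum of CBFA2T2, CBFA2T3 and RUNX1T1 was 4.27 and 4.30 CPM per kb with SOX9 induced and 4.16 to 4.96 elsewhere, so the ranges overlapped. The CBFA2T3 share of it was 7.15% and 13.4%, against 14.7% to 22.9%. The RUNX sum relative to the corepressor sum was 0.855 and 0.882 with SOX9 induced and 0.367 to 0.543 in the other 10 libraries. Whether this ratio is below 1 depends on the exon lengths. In CPM, RUNX1 (46.0 and 45.2) stood above CBFA2T2 (37.5 and 35.2) with SOX9 induced. The ratio of RUNX1 to CBFA2T3 was 5.02 and 9.68, against 1.12 to 2.61. In each of these ratios the 2 induced SOX9 libraries lay on one side of all others.

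**Figure D3:**
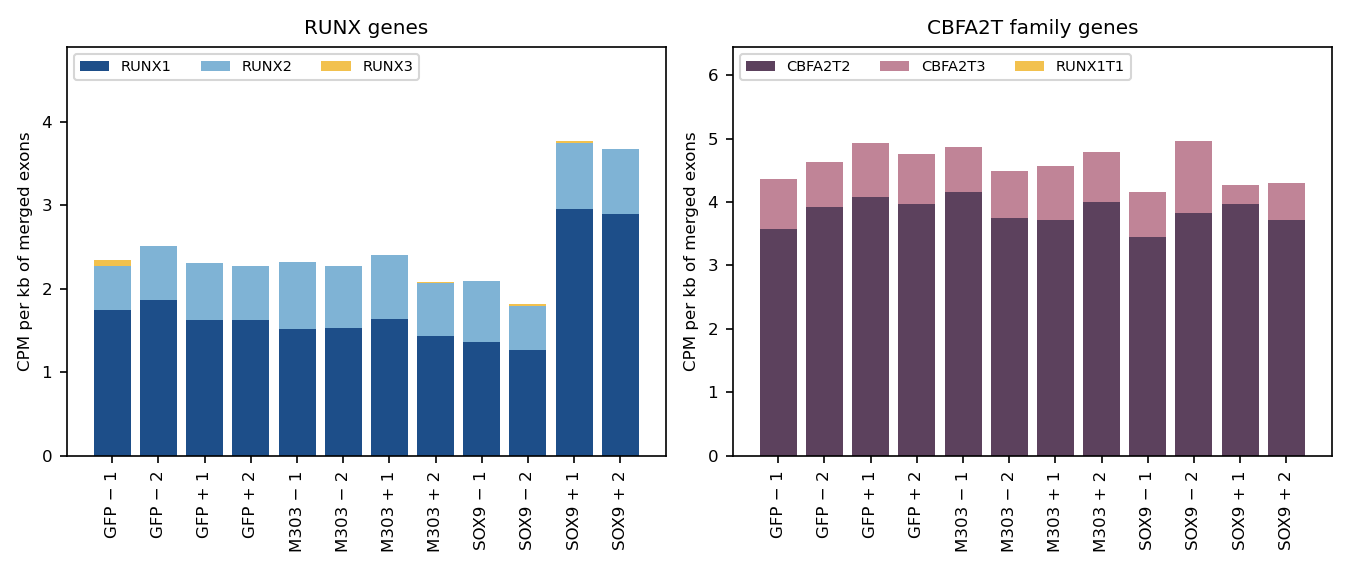
Level in CPM per kb of merged exons (vertical axis, from 0) of the RUNX genes (left) and the CBFA2T corepressor genes (right), stacked, in each of the 12 libraries (horizontal axis; line, doxycycline and replicate). The RUNX stack reaches 3.68 and 3.77 in the induced SOX9 libraries and at most 2.51 elsewhere, while the corepressor stacks overlap between groups.

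The genes whose log2 CPM was most alike a member's over the 12 libraries were taken from 11764 tested genes with a symbol and a mean of at least 1 log2 CPM. These correlations are descriptions over libraries that share groups and lines. For RUNX1 they were CLDN1, a tight junction protein (Pearson r = 0.98), PIK3AP1, an adaptor for PI3 kinase (0.97), and SNX25, a sorting nexin (0.96). Without the 2 induced SOX9 libraries, over the other 10, the values were 0.90, 0.78 and 0.82. CLDN1 was at 68.5 and 73.9 CPM with SOX9 induced and at 41.8 and 39.2 CPM without. It was at 52.0 and 51.3 CPM in the uninduced GFP line, which was also the line with the highest uninduced RUNX1. PIK3AP1 was at 82.1 and 81.9 CPM with and at 39.4 and 38.9 CPM without SOX9 induced. Its log2 fold change was 1.07. SNX25 went from 9.43 ± 0.127 to 12.5 ± 0.0701 CPM (SD, n = 2), a log2 fold change of 0.40 that edgeR did not call. These genes were picked by their likeness to RUNX1 over the same libraries, so their changes on SOX9 induction are descriptions.

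**Figure D4:**
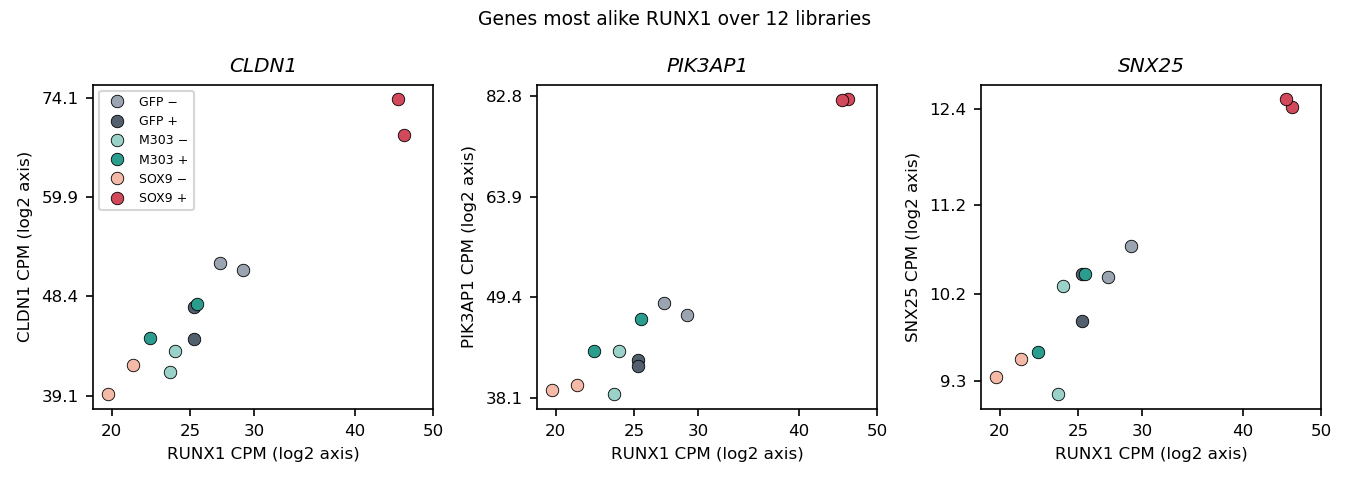
CPM of CLDN1, PIK3AP1 and SNX25 (vertical axes, log2 scale) against CPM of RUNX1 (horizontal axes, log2 scale) in the 12 libraries, coloured by line and doxycycline (minus without, plus with). The 2 induced SOX9 libraries stand apart at the upper right, and over the other 10 Pearson r was 0.90, 0.78 and 0.82. The genes were picked by r over all 12 libraries, these 10 included, so the values are descriptions.

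For RUNX2 the most alike genes were VEZT (r = 0.94), RBM12B (0.89) and ZBTB18 (0.89), and for CBFB they were ZNF529 (0.90), LMBR1 (0.90) and DGKA (0.89). edgeR called none of these 6 on SOX9 induction, which is a description too, since they were picked over the same libraries. Among the members, RUNX2 and CBFB varied together (r = 0.83 over 12 libraries and 0.79 over the 10 without induced SOX9). RUNX1 and CBFA2T3 varied in opposite directions (r = -0.82), and over the 10 other libraries r was -0.46. RUNX1 and RUNX2 had r = 0.44, and 0.08 without the induced SOX9 libraries.

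Genes that work with RUNX proteins were followed through 8 lists holding 149 genes, chosen with earlier results of these data known, of which 119 were tested. On SOX9 induction 13 of the 119 were called, 12 higher and 1 lower, beside the 2.97% called over all genes. Without induced SOX9 replicate 2, 7 were called and 6 lost their call (CDK6, SMAD7, SKIL, TGIF1, CD44 and MYL9), while the count over all genes went from 541 to 231. On M303 induction, on GFP induction and between the uninduced lines 0 were called, beside 1, 0, 0 and 1 over all genes. Of the partners that activate or bind DNA with RUNX, 2 of 24 tested rose and none fell, with a median log2 fold change of 0.11 against 0.01 over all genes. ETS2, an ETS factor that binds beside RUNX, went from 592 ± 3.22 to 783 ± 21.0 CPM (SD, n = 2; log2 0.40, edgeR adjusted p 5.30e-04). WWTR1 (TAZ), a coactivator of the Hippo pathway, went from 18.9 ± 2.21 to 32.6 ± 0.510 CPM (log2 0.79, edgeR adjusted p 6.16e-04). The ETS2 response exceeded those to M303 and GFP by 0.36 and 0.34 (edgeR adjusted p 0.115 and 0.102). For WWTR1 the differences were 0.59 and 0.68 (0.303 and 0.110), and none of these was called. Of the 19 corepressors, such as NCOR1, HDAC3 and the TLE genes, all were tested and none was called, with a median of -0.02.

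Among the factors that CBFA2T proteins bind and their helix-loop-helix network, 14 of 20 were tested, 1 rose and 1 fell. ATOH1, which specifies secretory cells of the intestine, was at 15.2 and 14.6 CPM with SOX9 induced and at 33.3 and 37.8 CPM without. The induced pair was below all 10 other libraries. Its log2 fold change was -1.25 (SE 0.12, edgeR adjusted p 5.84e-07), and the response differed by -1.01 from that to M303 (adjusted p 0.00202) and by -1.25 from that to GFP (1.14e-04). ID4, an inhibitor of helix-loop-helix factors, went from 9.31 ± 0.151 to 17.2 ± 0.977 CPM (SD, n = 2; log2 0.88, edgeR adjusted p 0.00157). In the GFP line ID4 was at 7.63 ± 0.127 CPM without and at 9.96 ± 1.31 CPM with doxycycline. Its response exceeded that to M303 by 0.80 (edgeR adjusted p 0.193) and that to GFP by 0.50 (0.512), and neither difference was called. The median of the list was 0.10.

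Of the 16 kinases and ubiquitin ligases that act on RUNX proteins, all tested, 1 rose, and the median was -0.09. This was CDK6, which binds RUNX1 and blocks its activity in myeloid cells. It went from 152 ± 10.9 to 216 ± 26.2 CPM (SD, n = 2; log2 0.51, edgeR adjusted p 0.00194). The response exceeded that to GFP by 0.61 (adjusted p 0.0193), and edgeR did not call the difference from M303. Without induced SOX9 replicate 2 the log2 fold change was 0.37 and the adjusted p 0.121. The difference from GFP was lost, at 0.47 to 0.54, without any 1 of uninduced GFP replicate 2, induced GFP replicate 2, uninduced SOX9 replicate 1 or induced SOX9 replicate 2.

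The TGF-beta and BMP pathway, whose SMADs form complexes with RUNX proteins, had 23 of 24 genes tested, with a median of 0.21. Of these 4 rose and none fell, beside 1.81% and 1.16% of all genes. The median was 0.11 in the difference from M303 and 0.19 in that from GFP. TGFBR3, the betaglycan co-receptor, was at 72.2 and 71.1 CPM with SOX9 induced and at 40.2 and 41.9 CPM without, above all 10 other libraries. Its log2 fold change was 0.80 (SE 0.10, edgeR adjusted p 2.29e-05), and it exceeded those on M303 and GFP induction by 0.85 (adjusted p 0.00267) and 0.88 (0.00125). The other 3 that rose are inhibitors of the pathway: SKIL (log2 0.54, edgeR adjusted p 0.0112), SMAD7 (0.45, 0.0262) and TGIF1 (0.35, 0.0411). For none of these 3 did edgeR call a difference from M303 or GFP. All 3 depended on single libraries. The highest adjusted p with 1 library left out was 0.178 for SKIL (log2 0.46 to 0.47 where lost, without uninduced or induced SOX9 replicate 2) and 0.322 for TGIF1 (0.30 to 0.39, without any 1 SOX9 library). For SMAD7 it was 0.544 (0.29 to 0.51, without uninduced SOX9 replicate 1 or 2 or induced SOX9 replicate 2).

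Of 15 genes described as targets of RUNX in epithelia and growth control, 13 were tested, with a median of 0.24. Of these 4 rose and none fell, beside 1.81% and 1.16% of all genes. The median was -0.03 in the difference from M303 and 0.20 in that from GFP. The 4 that rose were CLDN1 (log2 0.81, edgeR adjusted p 5.31e-06), the Notch ligand JAG1 (0.51, 1.26e-04), SMAD7, which is in the pathway list as well, and the adhesion receptor CD44 (0.25, 0.0454). CLDN1 was also picked above by its likeness to RUNX1, and the list was chosen with earlier results known. These values are therefore descriptions, and whether RUNX acts on these genes was not tested. The CLDN1 response exceeded those to M303 and GFP by 0.69 (adjusted p 0.00781) and 0.99 (1.13e-04), and the JAG1 response exceeded that to GFP by 0.48 (0.0174). JAG1 was at 292 and 300 CPM in the induced M303 libraries, between the uninduced libraries of that line (246 and 252 CPM) and the induced SOX9 libraries (334 and 345 CPM), and was not called on M303 induction. The CLDN1 difference from M303 was lost, at 0.63 to 0.65, without uninduced or induced M303 replicate 2 or induced SOX9 replicate 2. The JAG1 difference from GFP was lost, at 0.40 to 0.49, without uninduced GFP replicate 2 or either induced SOX9 library. CD44 lost its call, at 0.20 to 0.27, without any 1 of the 8 libraries of the SOX9 and M303 lines. For CD44 edgeR called no difference from M303 or GFP, and for JAG1 none from M303.

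Of 17 blood cell targets 9 were tested and 1 rose, MYL9, a myosin light chain, which went from 2.30 ± 0.723 to 4.81 ± 0.385 CPM (SD, n = 2; log2 1.06, edgeR adjusted p 0.0430). Any 1 of 4 libraries left out ended this call (0.77 to 1.14; highest adjusted p 0.313): uninduced M303 replicate 2, uninduced SOX9 replicate 1 and both induced SOX9 libraries. For MYL9 edgeR called no difference from M303 or GFP. The median of the list was 0.02. Of 15 skeletal targets of RUNX2, 5 were tested and none was called, with a median of 0.32. On M303 induction their median was 0.28 and on GFP induction 0.24. In the differences of SOX9 from M303 and from GFP it was 0.04 and 0.07. Markers of the cell types in which the family is best known were at or near 0: 8 of 9 blood and immune markers stayed below 1 CPM in every library, the exception being CD14 at 1.60 to 3.35 CPM, and 3 (CD3E, MS4A1 and TYROBP) had no count. All 3 osteoblast markers stayed below 1 CPM, and SP7 and IBSP had no count. All 4 endothelial markers and 6 of 7 fibroblast markers also stayed below 1 CPM. The summed blood markers were 2.26 to 3.93 CPM with SOX9 induced and 2.28 to 3.18 CPM without.

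**Figure D5:**
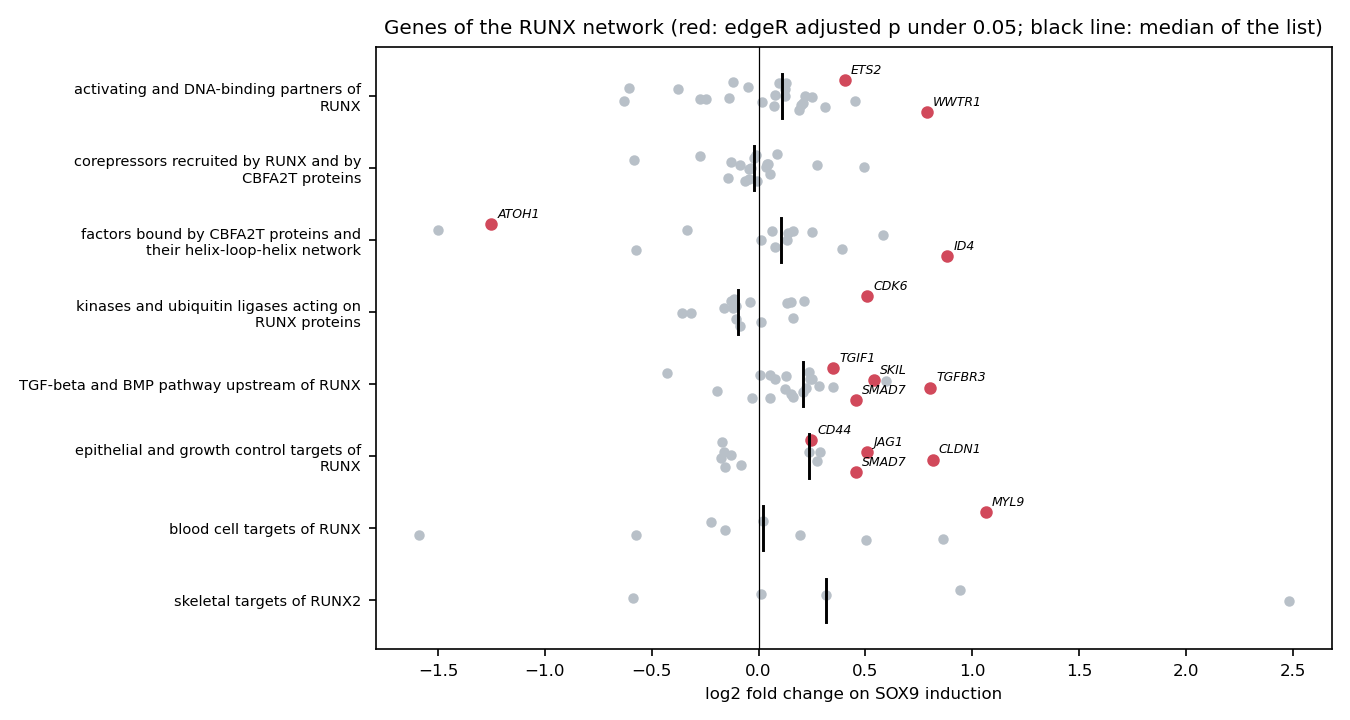
Log2 fold change on SOX9 induction (horizontal axis) of each tested gene in 8 lists of RUNX partners, regulators and targets (vertical axis; points are spread vertically for legibility), with genes at an edgeR adjusted p under 0.05 in red and list medians as black lines. The 13 called genes include 1 that fell, ATOH1 at -1.25, and list medians run from -0.09 to 0.32. The highest, of the skeletal targets, was 0.28 on M303 induction and 0.24 on GFP induction.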

How the data were processed

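Poly(A)-selected RNA of 12 LS180 libraries was sequenced as 150-bp pairs, per the labels' protocols. Reads were aligned with STAR 2.7.0a to hg38, per the submitters' processing notes. The authors deposited raw counts per gene, made with featureCounts 2.0.1 and Ensembl release 101 per the file headers. The recorded command has no paired-end, strand or multi-mapping option, so mates were counted singly, and reads that map to several places or overlap several genes were left out, which can lower genes with close copies or overlaps.

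Counts were scaled with TMM (factors 0.981 to 1.02) and tested in edgeR 4.0.16 (R 4.3.3) with the quasi-likelihood F-test and robust estimation, in a single fit of all 12 libraries with a mean for each of 6 groups and 6 residual degrees of freedom. The common biological coefficient of variation estimated by edgeR, the spread within groups beyond counting noise shared over genes, was 10.6%. filterByExpr kept 18219 of 60671 genes, and calls are at an adjusted p (Benjamini-Hochberg) below 0.05. All adjusted p-values of named genes are from this test over all genes. CPM uses the TMM-scaled totals; per-kb levels divide by the merged exon length in the count table. There were 7 comparisons, with differences between inductions fitted as interaction terms. Of all genes, 42020 (69.3%) had a symbol. No sample column was unused and 0 entries named no gene. Libraries of a group differed beyond counting noise (chi-square per degree of freedom 6.60 to 18.7), so none was merged. The procedure was tested on simulated data.

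Members, gene lists and comparisons were chosen with earlier results of these data known. Named genes are the 7 members, SOX9, up to 4 called genes per list with the smallest adjusted p on SOX9 induction and in SOX9 minus M303, the 3 genes most correlated with RUNX1, RUNX2 and CBFB, and genes overlapping member exons. Genes named beyond it (CD14, CD3E, MS4A1, TYROBP, SP7, IBSP) are markers picked after their values were seen; NCOR1, HDAC3 and TLE name list contents. Correlations without the induced SOX9 libraries were added after seeing the data. Alternatives were other scaling, no filter, DESeq2 1.42.0, a replicate block, no robust estimation, only the groups compared, and each library left out.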

Additional observations from a re-analysis of the deposited data

Results flagged for a closer look

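Some responses of listed genes to SOX9 differed from those to another construct by the test of the difference itself. Their lists were chosen with earlier results of these data known, and CLDN1 was also picked by its likeness to RUNX1. The tests are not independent of that choice, so these differences are descriptions too. For ATOH1 the differences on the log2 scale were -1.01 against M303 and -1.25 against GFP. TGFBR3 differed by 0.85 and 0.88, and CLDN1 by 0.69 and 0.99. CDK6 differed from GFP by 0.61 and JAG1 by 0.48. The JAG1 difference had an edgeR adjusted p of 0.0745 when only the groups compared were fitted. RUNX1 is not counted among these results, since it was picked from its levels in these groups; its differences of 1.14 against M303 and 1.31 against GFP are descriptions. Construct and line cannot be told apart in any of these.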

How the results depend on the processing

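As a description, the RUNX1 log2 fold change on SOX9 induction was 1.10 to 1.20 over 18 alternatives. edgeR no longer called CBFA2T3 on SOX9 induction with only the 2 groups compared, leaving 1 member called, and without uninduced SOX9 replicate 2 or induced SOX9 replicate 1 (members called with 1 library left out, 1 to 2). No member or listed gene reversed where called. Leaving out 1 library gave 231 to 675 genes called on SOX9 induction (541 in all), with 301 without uninduced SOX9 replicate 2, 270 without induced SOX9 replicate 1 and 231 without induced SOX9 replicate 2. The same gave 1 to 2 genes on M303 induction, 0 to 9 on GFP induction, 57 to 107 for SOX9 minus M303, 95 to 229 for SOX9 minus GFP, 0 to 39 for the uninduced SOX9 line and 0 to 56 for the uninduced M303 line. Without the filter on low counts, 9 genes were called on M303 induction, 4 on GFP induction, 147 for SOX9 minus M303, 270 for SOX9 minus GFP, 17 for the uninduced SOX9 line and 22 for the uninduced M303 line. DESeq2 called 2 on M303 induction, 2 on GFP induction and 2 for the uninduced SOX9 line; with only the groups compared, 3 were called on M303 induction and 1 for the uninduced SOX9 line. The causes were not tested. Same-numbered libraries did not deviate together (correlations -0.08 to 0.05 over 15 pairs of groups). A replicate block gave 452 calls on SOX9 induction and ended those of TGIF1, CD44 and MYL9 (adjusted p 0.0677, 0.0899 and 0.0542). CD44 also lost its call with RLE size factors (0.0543), without the filter (0.0559) and with only the groups compared (0.0638). TGIF1 lost it without robust estimation (0.0597), and MYL9 and the JAG1 difference between SOX9 and GFP lost it with only the groups compared (0.0603 and 0.0745). Of the 119 listed genes, 7 to 16 were called on SOX9 induction with 1 library left out, and 10 to 17 under the other alternatives. At these depths RUNX3 and RUNX1T1 cannot be compared between groups.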
